A study of Mus musculus with 15 samples.

Results

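Translation initiation factors load ribosomes onto mRNA. The genes were taken as the symbols of the count table that begin with Eif1 to Eif6, without the eIF2 kinases and pseudogenes, and that had at least 10 counts in at least 3 of the 15 libraries. The name rule alone gave 71 of the 55984 symbols, and 49 passed the count rule. All 49 were among the 17488 genes tested. Of the 22 that did not pass, 17 were copies named Eif1ad followed by a number, and Eif5a2 (at most 4 counts in a library), the second eIF5A gene, and Eif4e1b (at most 8 counts), an oocyte relative of the cap-binding protein, were also among them. Pseudogenes were outside the rule, and of these Eif4a-ps4 had 130 to 602 counts per library.

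Initiation begins when eIF2, bound to GTP, brings the initiator tRNA to the small ribosomal subunit, where eIF1, eIF1A, eIF3 and eIF5 hold it ready to scan. The mRNA is brought by eIF4F, in which eIF4E binds the 5′ cap, eIF4G is the scaffold and eIF4A is the helicase. Initiation is controlled chiefly at a pair of steps: eIF2B recharges eIF2 and is blocked when eIF2 is phosphorylated, and the 4E-binding proteins hold eIF4E away from eIF4G until mTORC1 phosphorylates them. The liver makes most plasma proteins, so hepatocytes carry a high load of this machinery.

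The libraries were RNA-seq of hepatocytes from wild-type (WT) adult male mice of the strain C57BL/6JJcl, none of them treated, sorted by Hoechst fluorescence, which reports DNA content. The populations were 2n-whole (diploid cells, n = 4 mice), 4n-whole (all tetraploid cells, n = 4), 4n-bottom (tetraploid cells with low Hoechst height, enriched for binucleated cells, n = 4) and 4n-top (tetraploid cells with high Hoechst height, enriched for mononucleated cells, n = 3, mice 2, 3 and 4). The 4n-top gate was not pure, since binucleated cells can also fall in it, and 2n cells were spun at a higher speed than 4n cells after the sort. The comparisons ask whether initiation factor mRNA differs with DNA content (4n with 2n) and with the number of nuclei (4n-top with 4n-bottom).

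Total counts ranged from 22049498 to 42096421 per library. The hepatocyte markers summed to between 76834 and 105646 CPM (counts scaled to library size, TMM-normalised) in every library, whereas the endothelial, Kupffer, stellate and lymphocyte markers together summed to between 7.49 and 26.7 CPM. The 4n-whole libraries of mice 2 and 4 stood apart in their relation to GC content, mouse 4 by less. Their deviations from the mean of all libraries correlated with GC content across 7366 genes at r = 0.58 and 0.35. In the other 13 libraries r ran from -0.30 to 0.27. They had 22049498 and 28612634 counts, but depth did not set mouse 4 apart. The 4n-top libraries of mice 3 and 4 had 25588972 and 26950875 counts. Members with an unadjusted p under 0.05 between 4n-whole and 2n-whole are given with and without the 4n-whole libraries of mice 2 and 4. So are the partner genes Atf4, Abce1, Etf1, Mknk2 and Akt1s1. In bulk samples fewer cells of a type and less RNA per cell cannot be told apart, and CPM values do not show a change of total mRNA per cell.

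Sequence near the start sites of the genes was read from the RefSeq promoter table (250 bases before and 50 after each start, GRCm38.p6), in which 38 of the 49 genes had an entry. The windows of Eif4e and Eif2b4, the members whose values are described first, were placed on GRCm39 by their exact and single match. Eif4e lies on chr3:138231936-138265457 (+), and Eif2b4 on chr5:31344902-31350774 (-), where it overlaps Snx17 on the other strand. Stretches of 30 bases are shown, with the motif in capitals, CACGTG being the E-box that MYC-type factors bind and CCGGAAG the core that ETS factors bind:
Eif4e, E-box 228 bases before the start site, chr3:138232789-138232818 (+): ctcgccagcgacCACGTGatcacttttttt
Eif4e, E-box 64 bases before the start site, chr3:138232953-138232982 (+): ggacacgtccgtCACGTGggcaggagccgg
Eif2b4, ETS core from base 2 of the transcript, chr5:31350464-31350493 (-): cccagtgcacgCCGGAAGttgtagtccgct
Both Eif4e stretches precede the start site at 138233029 and lie within the span of the gene, which begins further upstream. The upstream RefSeq start of Eif4e, at 138231952, had neither motif in its window. The Eif2b4 stretch spans the RefSeq start and lies within the span of the gene. Whether transcripts carry these stretches in the 5′ UTR was not tested. Searched on both strands, CACGTG was found in the window of 9 of the 38 genes (23.7%), against 11.3% of the 10916 tested genes with an entry and 8.09% of all 27025 genes. These were Eif1b, Eif3a, Eif3k, Eif3f, Eif4g1, Eif4a1, Eif4h, Eif4e and Eif5a. CCGGAAG was found in 14 of the 38 (36.8%), against 18.9% of the tested genes. The motifs do not overlap in letters, and a match is a description of the sequence only.

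The initiation factor mRNAs were spread over a wide range of levels and varied little between libraries. Levels between genes were compared as CPM per kb of the canonical transcript. The highest were those of Eif4g1 (108), the main eIF4G scaffold, Eif5a (97.2), which helps the ribosome past difficult stretches and is the one factor that carries hypusine, and Eif3a (89.5), the largest eIF3 subunit. The median over the 49 genes was 18.03 CPM per kb, and the lowest were Eif4e3 (0.289), a cap-binding relative, and Eif3j2 (0.511), the second gene for eIF3j. For the 46 genes with at least 5 CPM the median SD of log2 CPM over the 15 libraries was 0.20, against 0.25 for the 8395 tested genes of that range. Together the 49 genes took 0.317% to 0.437% of the counts of a library.

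**Figure D1:**
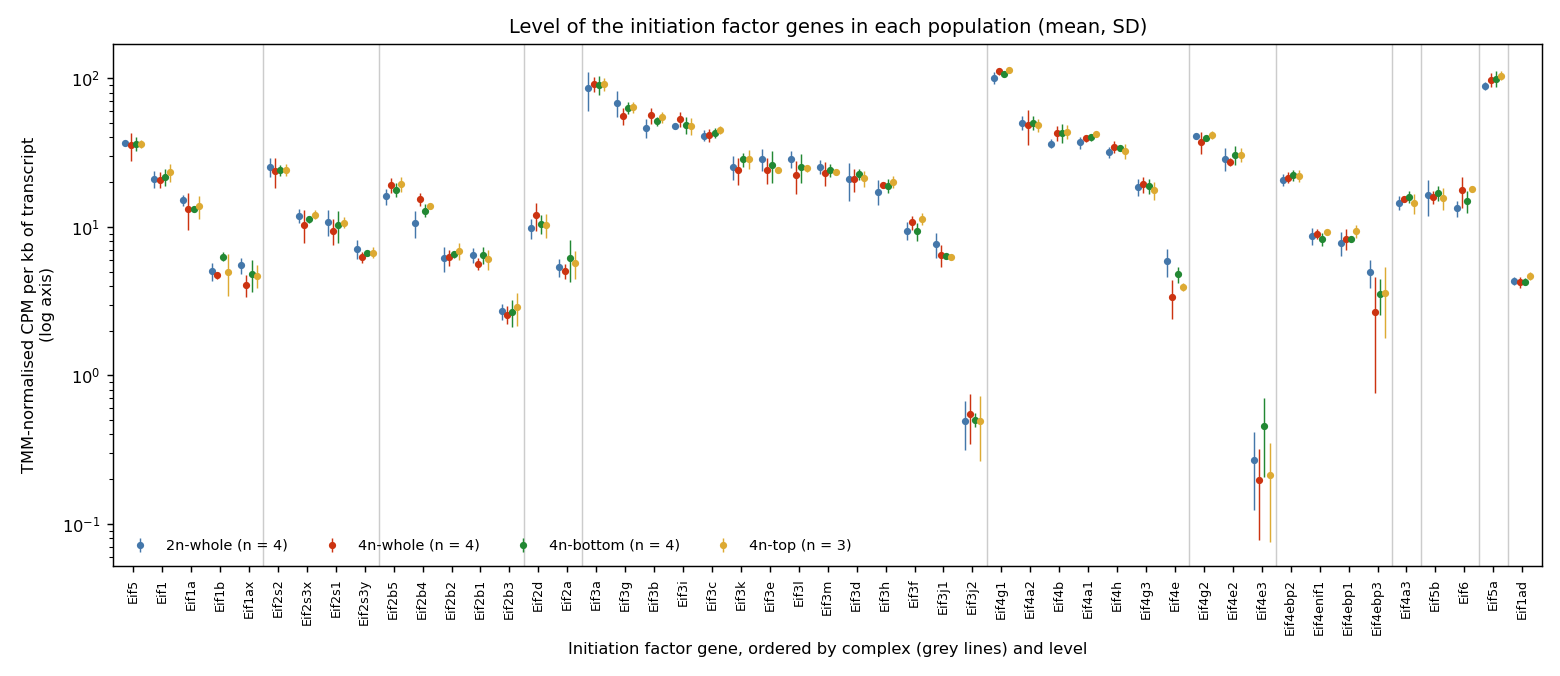
Level of each of the 49 initiation factor genes (CPM per kb of transcript, log axis), as mean with SD over the 4 libraries of 2n-whole, of 4n-whole and of 4n-bottom and the 3 libraries of 4n-top. Genes are ordered by complex and level, and the 4 means of a gene lie close together for most genes, with Eif4e lower in 4n-whole and wide errors for Eif3j2, Eif4e3 and Eif4ebp3.

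Subunits that form a complex were not at equal mRNA levels. In eIF4F, Eif4g1 (108 CPM per kb), the helicase genes Eif4a2 (49.4) and Eif4a1 (39.5) and the helicase cofactors Eif4b (41.3) and Eif4h (33.2) all exceeded Eif4e (4.54), the lowest of the 7 genes of that group. In eIF2, the β subunit gene Eif2s2 (24.4) was above the α subunit gene Eif2s1 (10.3) and the X-linked γ subunit gene Eif2s3x (11.36). Its Y-linked copy Eif2s3y, at 6.67 CPM per kb, made up 37.4% ± 5.36 (SD, n = 4) of the summed γ subunit level for 2n-whole and 38.3% ± 5.08 (SD, n = 4) for 4n-whole. In eIF2B, the ε subunit gene Eif2b5 (18.03), which holds the exchange activity, and the δ subunit gene Eif2b4 (13.1) were above Eif2b2 (6.43), Eif2b1 (6.17) and Eif2b3 (2.69). Among the 14 eIF3 genes Eif3a (89.5), Eif3g (62.8), Eif3b (52.0), Eif3i (49.3) and Eif3c (42.4) were the highest, and the other 9 ran from 0.511 (Eif3j2) to 26.5 (Eif3k). Of the genes that act at the start codon, Eif5 (36.2), which makes eIF2 hydrolyse its GTP there, was the highest and Eif1, Eif1a, Eif1b and Eif1ax ran from 4.77 to 21.6. Eif4ebp2 (21.6) led the eIF4E inhibitors, ahead of Eif4enif1 (8.75), Eif4ebp1 (8.37) and Eif4ebp3 (3.68). Among the relatives of eIF4E and eIF4G, Eif4g2 (39.7), a scaffold that does not bind eIF4E, and Eif4e2 (29.2), a cap-binding protein that represses translation, far exceeded Eif4e3 (0.289). For subunit joining Eif5b (16.2), the GTPase of that step, and Eif6 (15.8) were close, Eif2d (10.6) was above Eif2a (5.56) among the other binders of initiator tRNA, and Eif4g3 was at 18.7. Eif4a3 (15.1), the helicase of the exon junction complex, and Eif1ad (4.36) carry an initiation factor name only. These levels assume the canonical transcript, and reads of near-identical copies (Eif2s3x and Eif2s3y, Eif4a1 and Eif4a2, Eif1a and Eif1ax, Eif3j1 and Eif3j2) may be split or lost in the counting, so those levels are uncertain.

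In 4n-whole compared with 2n-whole, Eif4e fell and Eif2b4 rose, and the other 47 genes did not pass the test. The 2 calls were 4.08% of the 49 genes, against 5.47% of all tested genes (957 of 17488) at an adjusted p under 0.05. The share was thus near that of all genes. The median log2 fold change was -0.03 over the 49 genes and -0.01 over all genes tested. At an unadjusted p under 0.05 there were 11 of the 49 genes (22.4%) and 3570 of all genes (20.4%).

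Eif4e, the cap-binding protein itself, was measured in 2n-whole at 34.7, 31.0, 20.3 and 31.5 CPM in mice 1 to 4. In 4n-whole it was at 23.2, 12.3, 18.3 and 13.8 CPM in the same mice. It was lower in 4n-whole in 4 of 4 mice, least in mouse 3, whose 2n-whole library was the lowest of its population. The groups overlapped, since mouse 1 in 4n-whole was above mouse 3 in 2n-whole. The log2 fold change was -0.80 (SE 0.15, 95% interval -1.11 to -0.49), a fold of 0.575, with an adjusted p of 0.00164 in edgeR's quasi-likelihood test. In 4n-bottom Eif4e was at 26.3, 26.4, 20.3 and 22.5 CPM in mice 1 to 4, and in 4n-top at 21.2, 19.5 and 18.6 CPM in mice 2 to 4. Both gates lay between the other populations in their means, at 23.9 ± 3.01 (SD, n = 4) and 19.8 ± 1.30 (SD, n = 3) CPM, against 29.4 ± 6.27 (SD, n = 4) for 2n-whole and 16.9 ± 4.91 (SD, n = 4) for 4n-whole. Without the 4n-whole libraries of mice 2 and 4, the log2 fold change of 4n-whole was -0.46 with an adjusted p of 0.149 (edgeR). In 4n-whole against 2n-whole none of the 49 genes was called in that fit, while 297 of all genes were. The fold change was smaller, but fewer libraries also give less power. Whether the call rests on those libraries cannot be decided from this fit. In the same fit 4n-top against 2n-whole gave -0.51 with an adjusted p of 0.0129.

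Eif2b4, the δ subunit of the exchange factor that recharges eIF2, went the other way. It was at 15.8, 24.6, 25.5 and 20.4 CPM in 2n-whole and at 27.4, 33.8, 29.6 and 33.7 CPM in 4n-whole in mice 1 to 4. It was higher in 4n-whole in 4 of 4 mice, and the groups did not overlap. The log2 fold change was 0.55 (SE 0.12, 95% interval 0.30 to 0.79), a fold of 1.46, with an adjusted p of 0.00726 in edgeR's quasi-likelihood test. It was the 1 member whose groups did not overlap in this comparison (2.04% of the 49 genes), against 5.8% of all tested genes (1014 of 17488). Without the 4n-whole libraries of mice 2 and 4 the log2 fold change was 0.45 with an adjusted p of 0.150 (edgeR), and without mouse 4 it was 0.48 with an adjusted p of 0.144. The level of Eif2b4 over the mean of the other 4 eIF2B genes averaged 1.36 ± 0.29 (SD, n = 4) for 2n-whole and 1.83 ± 0.13 (SD, n = 4) for 4n-whole. The counting was not stated to use strand, so reads of Snx17 in the overlap may enter Eif2b4.

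**Figure D2:**
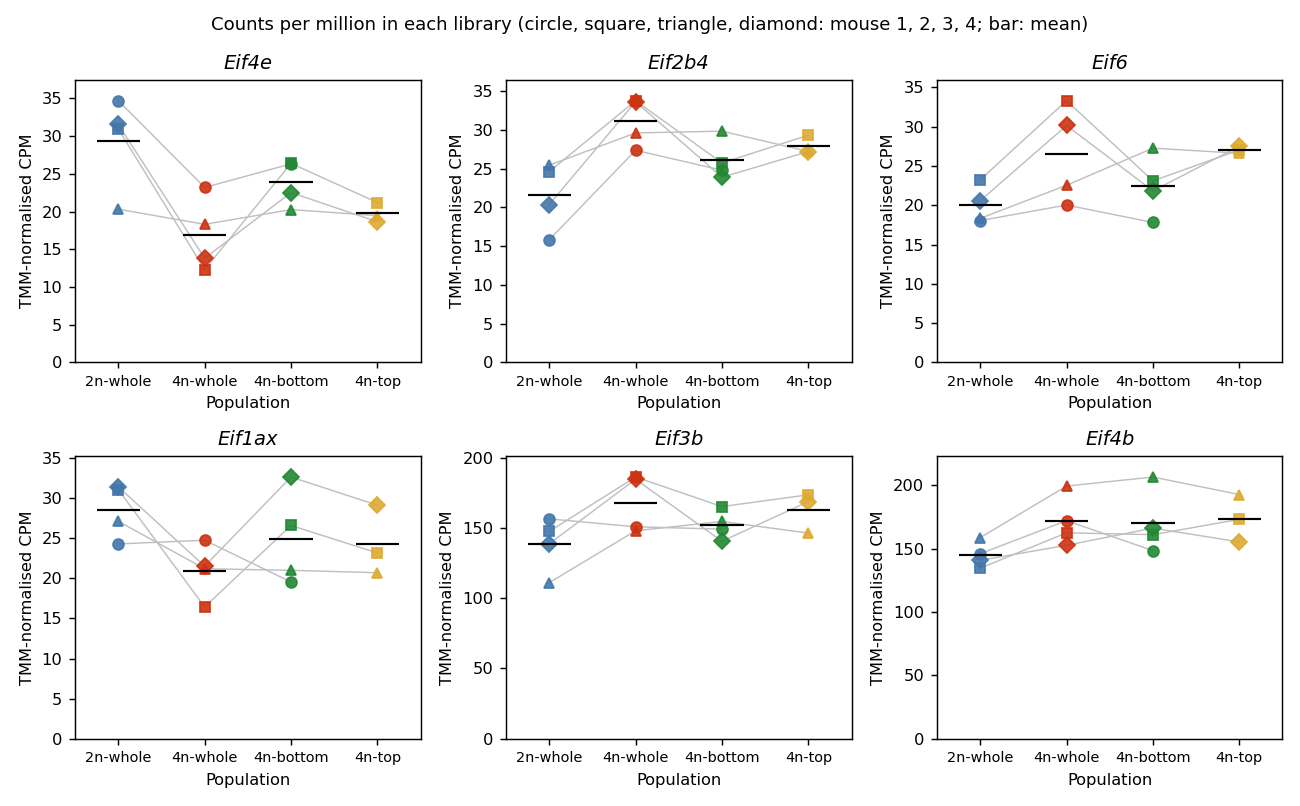
TMM-normalised CPM of Eif4e, Eif2b4, Eif6, Eif1ax, Eif3b and Eif4b in each of the 15 libraries, by population, with the marker shape giving the mouse, grey lines joining libraries of a mouse and black bars the means. Eif4e is lower and Eif2b4 higher in 4n-whole than in 2n-whole in 4 of 4 mice, and in Eif6 the 4n-whole libraries of mice 2 and 4 (33.3 and 30.2 CPM) lie above those of mice 1 and 3 (20.0 and 22.5 CPM).

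The other 9 genes with an unadjusted p under 0.05 in this comparison did not pass after adjustment. Without the 4n-whole libraries of mice 2 and 4, Eif6 was at 0.16, Eif1ax at -0.11, Eif3l at -0.06, Eif3b at 0.15, Eif3g at -0.16, Eif4ebp3 at -0.44, Eif2b5 at 0.20, Eif2d at 0.21 and Eif4b at 0.29, none of them called by edgeR. Eif6, which keeps the large subunit from joining too early, was at 18.04, 23.2, 18.3 and 20.6 CPM in 2n-whole and at 20.0, 33.3, 22.5 and 30.2 CPM in 4n-whole in mice 1 to 4. Its highest values in 4n-whole were those of mice 2 and 4. The log2 fold change was 0.38 (SE 0.13, adjusted p = 0.0789, edgeR). Eif1ax, the X-linked gene for eIF1A, was at 24.3, 31.1, 27.1 and 31.4 CPM in 2n-whole and at 24.8, 16.44, 21.2 and 21.5 CPM in 4n-whole, with nearly equal values in mouse 1 and lower values in the other 3 mice (log2 fold change -0.43, adjusted p = 0.0743, edgeR). Eif4b, the cofactor of the eIF4A helicase, was at 146, 135, 159 and 141 CPM in 2n-whole and at 172, 162, 199 and 153 CPM in 4n-whole. It was higher in 4 of 4 mice, by less than Eif2b4 (log2 fold change 0.24, adjusted p = 0.106, edgeR).

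The eIF3 genes, which form the platform between the small subunit and eIF4G, had log2 fold changes from -0.37 to 0.28 with a median of 0.02, and 0 of 14 were called. Eif3b, a core subunit, was at 156, 147, 111 and 139 CPM in 2n-whole and at 151, 186, 148 and 185 CPM in 4n-whole (log2 fold change 0.28, adjusted p = 0.0897, edgeR). Eif3g, a peripheral subunit with an RNA-binding domain, was at 90.1, 87.1, 66.0 and 59.8 CPM in 2n-whole and at 73.8, 55.6, 60.0 and 59.1 CPM in 4n-whole (-0.27, adjusted p = 0.138, edgeR). Eif3l was at 59.4, 55.8, 45.3 and 63.2 CPM in 2n-whole and at 56.2, 32.6, 48.97 and 35.9 CPM in 4n-whole (-0.37, adjusted p = 0.112, edgeR). The values of these 3 genes overlapped between the populations. For Eif3l the low 4n-whole libraries were those of mice 2 and 4, and for Eif3g mouse 2 was the lowest and mice 3 and 4 were close to it.

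No complex had more than 1 called gene. The median log2 fold change was -0.08 for the 5 start codon genes (-0.43 to -0.03), -0.19 for the 4 eIF2 genes, all of them below 0, 0.02 for the 5 eIF2B genes (-0.19 to 0.55) and 0.10 for the 7 eIF4F genes (-0.80 to 0.24). It was 0.05 for the 4 eIF4E inhibitors (-1.07 to 0.10) and -0.14 for the 3 relatives of eIF4E and eIF4G (-0.50 to -0.06). The eIF2 genes did not keep that shared sign with the 4n-whole libraries of mice 2 and 4 left out. There Eif2s1 was at -0.00098, Eif2s2 at 0.20, Eif2s3x at 0.0149 and Eif2s3y at 0.0153. With all libraries, Eif2s1 (log2 fold change -0.20, SE 0.13, adjusted p = 0.420), Eif2s3x (-0.20, SE 0.13, adjusted p = 0.440) and Eif2s3y (-0.18, SE 0.12, adjusted p = 0.439) were not called in edgeR's test. Of the eIF2B genes only Eif2b4 was called, and the next, Eif2b5, was at 38.97, 48.8, 38.5 and 38.4 CPM in 2n-whole and at 45.5, 54.6, 42.6 and 52.5 CPM in 4n-whole (0.24, adjusted p = 0.168, edgeR). Of the eIF4E inhibitors, Eif4ebp1 (0.10, SE 0.13, adjusted p = 0.739) and Eif4ebp2 (0.05, SE 0.09, adjusted p = 0.827), the 4E-binding proteins with the most mRNA here, were not called by edgeR. Eif4ebp3, a further 4E-binding protein with only 20 to 185 counts per library, was at 4.56, 3.77, 3.55 and 2.67 CPM in 2n-whole and at 3.19, 0.80, 3.17 and 0.70 CPM in 4n-whole. The lowest values were again those of mice 2 and 4 in 4n-whole, and the log2 fold change was -1.07 (SE 0.34, adjusted p = 0.0699, edgeR). It shares its strand with Maskbp3, an overlapping gene, so its counts are uncertain. Eif5a had a log2 fold change of 0.13 (SE 0.09, adjusted p = 0.477, edgeR).

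**Figure D3:**
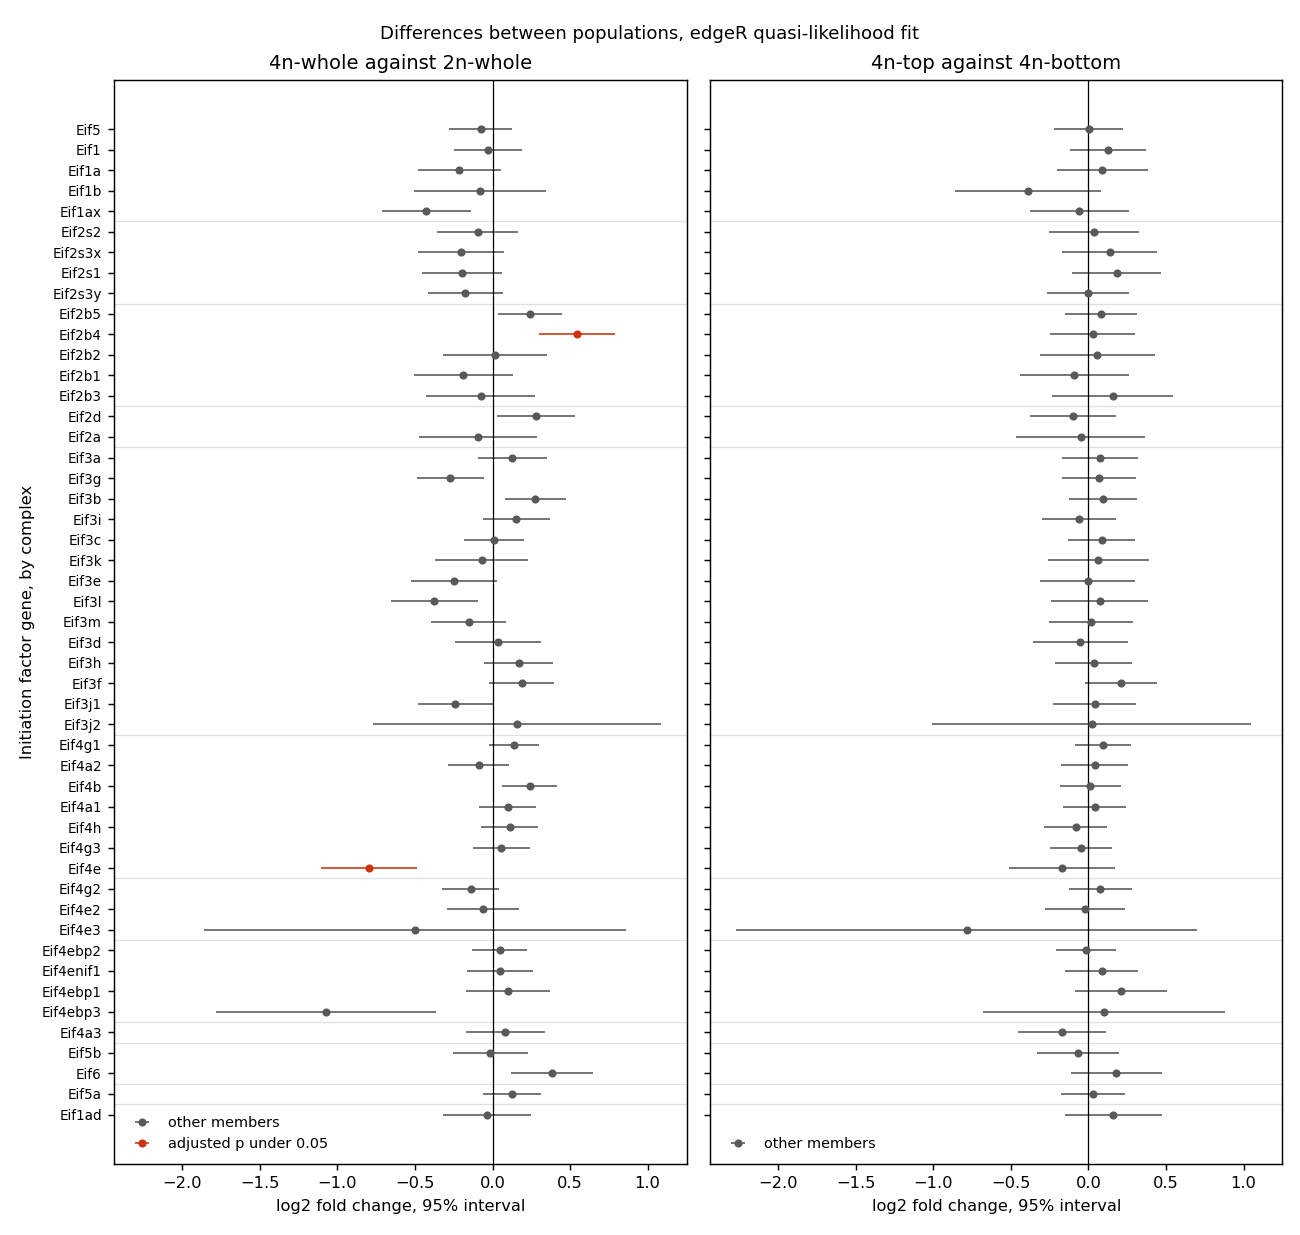
Log2 fold change with its 95% interval for the 49 genes, by complex, in 4n-whole against 2n-whole (left) and 4n-top against 4n-bottom (right). On the left Eif4e (-0.80) and Eif2b4 (0.55), in red, have an adjusted p under 0.05, and on the right no gene does.

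In 4n-top compared with 4n-bottom none of the 49 genes was called by edgeR, and none had an unadjusted p under 0.05. DESeq2 also called 0, both with mouse terms and after ComBat-seq. Over all tested genes edgeR called 0.0114% (2 of 17488), and 488 had an unadjusted p under 0.05. The counts over all genes from DESeq2 are not given for this comparison. With ComBat-seq and DESeq2 the paper reported more genes than edgeR called here. It also required a log2 fold change beyond 0.5 in size, a limit not set for the edgeR calls. The 95% interval of the log2 fold change lay within 0.5 of 0 for 42 of the 49 genes, which bounds a difference between the gates for these genes, while the other 7 were too imprecise for that bound. The median was 0.03, and the values ran from -0.78 for Eif4e3, which had 4 to 71 counts per library, to 0.21 for Eif3f, an eIF3 subunit. For Eif4e the difference was -0.17 (95% interval -0.51 to 0.17), lower in 4n-top in 3 of 3 mice. For Eif2b4 it was 0.03 (95% interval -0.25 to 0.30). The other genes followed for their roles were all at an adjusted p of 1 in edgeR's test: Eif4ebp1 at 0.21 (SE 0.15), Eif6 at 0.18 (SE 0.14), Eif2s1 at 0.18 (SE 0.14), Eif2s3x at 0.14 (SE 0.15), Eif4ebp3 at 0.10 (SE 0.38), Eif5a at 0.03 (SE 0.10), Eif2s3y at -0.00 (SE 0.13) and Eif4ebp2 at -0.02 (SE 0.09). These gates hold mixed cells, and pure mononucleated and binucleated cells were not compared.

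Each gate was also compared with 2n-whole, and these comparisons share the 2n-whole libraries with the one above. In 4n-bottom against 2n-whole 0 of the 49 genes were called, against 0.492% of all tested genes, and 3 (6.12%) had an unadjusted p under 0.05 (Eif2b4, Eif3j1 and Eif4b), against 10.2% of all tested genes (1777). In 4n-top against 2n-whole 0 were called, against 1.06% of all tested genes, and 7 (14.3%) had an unadjusted p under 0.05 (Eif2b4, Eif3b, Eif4ebp1, Eif4g1, Eif4b, Eif4e and Eif6), against 11.3% of all tested genes (1977). ComBat-seq followed by DESeq2 called Eif4b in the first, among 471 of all genes, and Eif4b and Eif4g1 in the second, among 922 of all genes. The log2 fold change of Eif4e was -0.29 in 4n-bottom (adjusted p = 0.520) and -0.46 in 4n-top (adjusted p = 0.245, edgeR), lower in 4 of 4 and in 3 of 3 mice. That of Eif2b4 was 0.29 in 4n-bottom (adjusted p = 0.378) and 0.32 in 4n-top (adjusted p = 0.340, edgeR), higher in 4 of 4 and in 3 of 3 mice. The medians over the 49 genes were 0.05 and 0.06.

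The 4n-whole population contains the cells of both gates, and its values can be set beside theirs. None of the 49 genes was called in 4n-whole against 4n-bottom (0.00572% of all tested genes) or against 4n-top (0% of all tested genes), and 2 (Eif2b4 and Eif4e) and 1 (Eif3g) had an unadjusted p under 0.05 in edgeR's test, against 974 and 700 of all genes. Eif4e differed by -0.51 from 4n-bottom (adjusted p = 0.520) and by -0.34 from 4n-top (adjusted p = 0.984). The mean log2 CPM of 4n-whole lay outside the range of the means of the gates for 38 of the 49 genes (77.6%), and for 66.9% of all tested genes, with 4n-top taken over mice 2 to 4 and the others over 4 mice. With every population taken over mice 2 to 4, it was 43 of 49 (87.8%) and 74.1% of all tested genes. Without the 4n-whole libraries of mice 2 and 4, Eif4e differed from 4n-top by 0.04.

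Tested over the 4 populations together, Eif4e was the 1 member called (2.04% of the 49 genes, adjusted p = 0.0152, edgeR), against 1.95% of all tested genes, and Eif2b4 had an adjusted p of 0.0649. Eif4e was not called in this test without mouse 2 or without mouse 4. Differences between mice were more common. In the test of the mouse terms 7 of the 49 genes (14.3%) were called, against 19.2% of all tested genes (3358 of 17488), in edgeR's quasi-likelihood fit. They were Eif4a2, Eif3a, Eif2d, Eif4g3, Eif2s1, Eif4b and Eif3f. Eif2d, which can deliver initiator tRNA without eIF2, was at 19.9, 24.1, 17.0 and 18.3 CPM in 2n-whole and at 19.8, 31.4, 21.5 and 24.6 CPM in 4n-whole in mice 1 to 4, and mouse 2 had the highest value in each. Eif3f was at 28.7, 35.1, 32.4 and 39.7 CPM in 2n-whole, 34.3, 36.0, 42.1 and 42.1 CPM in 4n-whole and 27.0, 34.5, 34.4 and 38.7 CPM in 4n-bottom in mice 1 to 4, lowest in mouse 1 in each.

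Because the 4E-binding proteins act by holding eIF4E, their mRNA was set against that of Eif4e. The summed level of Eif4ebp1, Eif4ebp2 and Eif4ebp3 over that of Eif4e, both per kb, averaged 5.99 ± 1.92 (SD, n = 4) for 2n-whole and 10.0 ± 2.00 (SD, n = 4) for 4n-whole. The gates lay between, 4n-bottom at 7.21 ± 0.99 (SD, n = 4) and 4n-top at 8.87 ± 1.44 (SD, n = 3). The 2n-whole values ran from 4.90 to 8.87 and those of 4n-whole from 7.20 to 11.5, so the groups overlapped through mouse 3 of 2n-whole and mouse 1 of 4n-whole. Eif4g1 over Eif4e averaged 17.7 ± 3.11 (SD, n = 4) for 2n-whole and 34.9 ± 9.63 (SD, n = 4) for 4n-whole. In 4n-whole it was 25.03, 44.9, 28.4 and 41.1 in mice 1 to 4, highest in mice 2 and 4, the libraries that stood apart, and the 4E-binding protein ratio was 7.20, 11.42, 9.97 and 11.5 in the same mice. Both ratios contain Eif4e, whose difference chose them, so they are given with no test. They are ratios of mRNA, and neither the proteins nor their phosphorylation was measured.

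**Figure D4:**
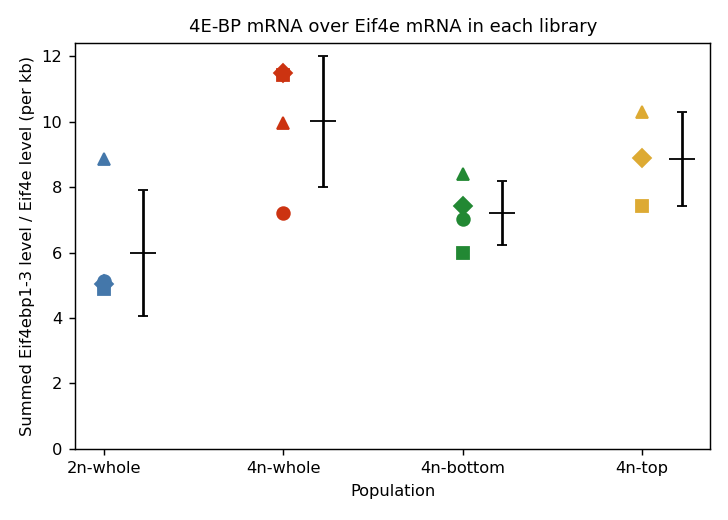
Summed level of Eif4ebp1, Eif4ebp2 and Eif4ebp3 divided by that of Eif4e (both CPM per kb) in each library, with mean and SD to the right and the marker shape giving the mouse as in the plot of CPM by library. The range is 7.20 to 11.5 for 4n-whole and 4.90 to 8.87 for 2n-whole, with mouse 3 the highest of 2n-whole.

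Factors that work with the initiation machinery were taken from lists, whose calls are read against the 5.47% of all tested genes called in 4n-whole against 2n-whole. Of 16 genes of the eIF2 kinases, phosphatase and stress targets, 1 was called (6.25%) in that comparison, with a list median of 0.23. This was Atf4, the transcription factor whose own mRNA is translated when eIF2 is phosphorylated, which rose by a log2 fold change of 0.54 (SE 0.11, adjusted p = 0.00215, edgeR). It was at 85.3, 102, 103 and 98.2 CPM in 2n-whole and at 111, 194, 119 and 151 CPM in 4n-whole, higher in 4 of 4 mice with no overlap. Its targets Asns (log2 fold change -0.06), Chac1 (0.50), Trib3 (0.30), Ddit3 (0.11), Psat1 (0.85) and Phgdh (2.05) were not called. Nor were Sesn2, Ddit4 and Fgf21 of the same list. Several of the targets had few reads. In the 2n-whole and 4n-whole libraries Psat1 ran from 0 to 0.69 CPM and Phgdh from 0 to 0.59 CPM. Chac1 ran from 0 to 1.03 CPM and Asns from 0.48 to 2.01 CPM. The test cannot show whether genes this low changed. Of 12 cap, poly(A) and recycling partners 1 was called (8.33%), Abce1, which splits ribosomes for reuse and fell by 0.54 (SE 0.14, adjusted p = 0.0220, edgeR), from 78.8 ± 7.87 to 55.0 ± 17.5 CPM (SD, n = 4 each). Of 9 elongation and termination genes 1 was called (11.1%), Etf1, the release factor, which fell by 0.38 (SE 0.10, adjusted p = 0.0210, edgeR). None of 14 genes of mTORC1 and eIF4 control was called, with 2 at an unadjusted p under 0.05 in edgeR's test. These were Mknk2 (0.32, adjusted p = 0.164), a kinase of eIF4E, and Akt1s1 (0.35, adjusted p = 0.181), an inhibitory partner of mTORC1. With the 4n-whole libraries of mice 2 and 4 left out, Mknk2 was at -0.06 and Akt1s1 at 0.36. Ribosomal protein genes were taken by name (Rpl or Rps and a number), which also took in relatives and copies such as Rpl7l1, Rps19bp1 and Rps27l. Of the 84 genes, 6 were called, or 7.14% (Rpl18, Rpl37a, Rpl7, Rps19, Rps2 and Rps27l), all higher, with a list median of 0.09. These shares rest on 1 gene in each of the short lists and are near that of all genes for the ribosomal proteins. None of these lists had a call in 4n-top against 4n-bottom, in 4n-bottom against 2n-whole or in 4n-top against 2n-whole in edgeR's test. Without the 4n-whole libraries of mice 2 and 4, Atf4 (0.30, adjusted p = 0.220), Abce1 (-0.18, adjusted p = 0.677) and Etf1 (-0.31, adjusted p = 0.281) were not called by edgeR, and of the ribosomal protein genes 2 were, Rpl18 (0.42, adjusted p = 0.0377) and Rps27l (0.56, adjusted p = 0.0140). Abce1 and Etf1 were also not called without mouse 2 (-0.35 and -0.30) or without mouse 4 (-0.49 and -0.40).

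Base composition moved with these values. Across the 49 genes the log2 fold change in 4n-whole against 2n-whole correlated with the GC content of the transcript at r = 0.38, and across 7366 genes at r = 0.45, while in 4n-top against 4n-bottom both were near 0 (0.02 and 0.00). These are descriptions across genes that share their libraries. Eif4e has a GC content of 40.5% and Eif2b4 one of 56.8%. After correction of each library for GC content and transcript length, Eif4e was at -0.59 (adjusted p = 0.00235) and Eif2b4 at 0.37 (adjusted p = 0.0532, edgeR), and Eif3g, Eif3l and Eif4ebp3 were called lower. This correction was chosen after seeing the data. Its count over all genes is not given, so these calls cannot be set against other genes.

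**Figure D5:**
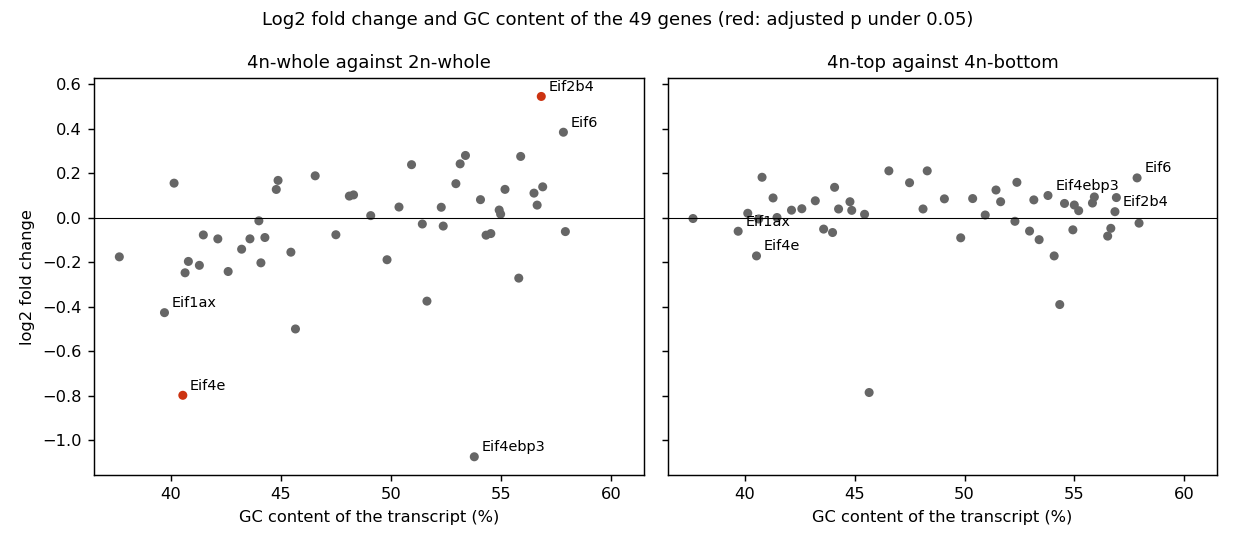
Log2 fold change of the 49 genes (vertical axis) against the GC content of their transcript in percent, for 4n-whole against 2n-whole (left) and 4n-top against 4n-bottom (right). On the left the points rise with GC content (r = 0.38), with Eif4e at 40.5% and Eif2b4 at 56.8% in red, and on the right they do not (r = 0.02).

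Markers of position and cell type also moved with the populations. All 9 pericentral markers were called higher in 4n-whole than in 2n-whole and 5 of 9 periportal markers lower, and the pericentral sum was 750.2 to 1047 CPM in 2n-whole and 1131 to 3370 CPM in 4n-whole. Of the same markers 6 of 9 were called higher in 4n-bottom and 6 of 9 in 4n-top than in 2n-whole. Between the gates they also differed. In 4n-top against 4n-bottom 6 of 9 pericentral markers had an unadjusted p under 0.05 in both directions. Glul, glutamine synthetase, was called lower (-0.90, adjusted p = 0.0499, edgeR), and Slc1a2 was lower but not called (-1.08, adjusted p = 0.0663, edgeR). Rgn was at 0.86, Cyp2e1 at 0.72, Cyp1a2 at 0.60 and Cyp27a1 at 0.28. All 9 periportal markers were below 0 there, with 4 at an unadjusted p under 0.05 and none called. With a score of these markers in the model Eif4e was at -1.21 (adjusted p = 0.343) and Eif2b4 at 0.46 (adjusted p = 0.660, edgeR), and 1 of all genes was called. Of the 5 cholangiocyte markers 4 were tested, and 2 of them, Spp1 and Sox9, were called lower in 4n-whole. Their list summed to 34.5 to 46.6 CPM in 2n-whole and 16.404 to 31.2 CPM in 4n-whole. With a score of the endothelial, Kupffer, stellate and lymphocyte markers in the model, Eif4e was at -0.88 (adjusted p = 0.0134) and Eif2b4 at 0.66 (adjusted p = 0.0226, edgeR). That list summed to 13.9 to 24.5 CPM in 2n-whole and 7.49 to 26.7 CPM in 4n-whole, with Vsig4, a Kupffer marker, at 0 in 10 libraries. The B cell marker Cd79a, at 0 in 14 libraries, was not tested, nor were C1qa and Rgs5. Of the 5 lymphocyte markers 1 was tested, Ptprc. Mitochondrial genes took 20.5% to 26.2% of the counts in 2n-whole and 8.84% to 18.5% in 4n-whole. In a fit with mitochondrial and ribosomal RNA genes left out, Eif4e and Eif2b4 kept their direction in 4n-whole against 2n-whole. The part of this difference in the results was not otherwise tested.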

How the data were processed

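RNA of sorted hepatocytes from 4 mice was sequenced from 20 ng of total RNA with a SMART-Seq stranded kit. For the mapping the authors used STAR (2.7.11a in the submitters' processing notes) and the build GRCm39, with featureCounts for counting. The deposited values are raw counts per gene symbol for 15 libraries, before the ComBat-seq adjustment of the study. The annotation, strand setting and handling of mates are not given in the sources used here. A 4n-top library of mouse 1 was not analysed here.

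Counts were tested with edgeR 4.0.16 in R 4.3.3 (TMM, filterByExpr with a minimum count of 10 and total of 15, quasi-likelihood F test), with population and mouse in 1 model of all 15 libraries, and Benjamini-Hochberg adjustment over 17488 genes. A gene was called at an adjusted p under 0.05. SE and 95% intervals came from the fitted variance. The mouse number came from the labels, where the subject number names the animal. Libraries of the same mouse correlated in their deviations from the population means at 0.158 on average (0.0845 to 0.227, 21 pairs). The fit was tested on simulated data.

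CPM per kb used the canonical GENCODE M39 transcript. GC correction removed a spline trend (5 degrees of freedom) from each library. Alternatives used DESeq2 1.42.0, sva 3.50.0 (ComBat-seq), other samples, filters and covariates. The members and lists were chosen with earlier results of these data known. Fold change, SE and p were given for called members and for 9 genes named for their role, and values per library for up to 12 members, ranked by calls and then by the p over the 4 populations.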

Additional observations from a re-analysis of the deposited data

Results flagged for a closer look

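In 63 groups of 4 libraries (21 named genes in 3 populations), a Dixon test at 95% marked 2 values, where chance marks about 1 group in 20. Eif2b5 was at 48.8 CPM in mouse 2 of 2n-whole, against 38.4 to 38.97 CPM in the other 3 libraries. Eif2s1 was at 41.8 CPM in mouse 1 of 4n-whole, against 27.9 to 30.1 CPM in the other 3 libraries.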

How the results depend on the processing

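The counts of called genes in 4n-whole against 2n-whole depended most on the model. Against 2 called genes in the reported fit, 0 were called with no replicate block (40 of all genes called), 11 with ComBat-seq then DESeq2 (2470 of all genes), 5 with DESeq2 and the mouse in the model (1468 of all genes), 1 with the compared populations only (322 of all genes), 0 with a covariate for lobular position (1 of all genes), 4 with the GC and length correction, and 0 without the 4n-whole libraries of mice 2 and 4. Dropping one mouse at a time gave 1 to 5 (257 to 1403 of all genes). Over all genes, 957 were called in the reported fit, 334 with the covariate for non-parenchymal markers, 607 with a limit of 0.5 on the log2 fold change and 297 without the 4n-whole libraries of mice 2 and 4. With the GC and length correction the count over all genes is not given, so its 4 calls cannot be set against other genes. Both correction for GC content and length and the omission of those libraries were chosen after seeing the data. The causes of these changes were not tested, except that fits with fewer libraries have less power by construction.

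Eif4e kept its direction in all 16 alternatives of this comparison (-1.21 to -0.46) and its call in 13. Eif2b4 kept its direction in 16 (0.37 to 0.66) and its call in 10. With no replicate block the adjusted p was 0.105 for Eif4e and 0.163 for Eif2b4, and Atf4 (0.149), Abce1 (0.294) and Etf1 (0.312) were lost too. In the test over the 4 populations dropping the block lost the call of Eif4e. It changed no call of a named gene in the other pairwise comparisons.

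ComBat-seq then DESeq2 called 1 gene in 4n-bottom against 2n-whole and 2 in 4n-top against 2n-whole, where leaving out the 4n-whole libraries of mice 2 and 4 gave 1. In the test over the 4 populations, 0 genes were called with no replicate block, with the covariate for non-parenchymal markers and with that for lobular position, 2 with DESeq2 and the mouse in the model and with no filter on low counts, and 0 to 2 with a mouse left out. For the mice, 4 were called with the lobular covariate, 16 with the GC correction, 13 without the 4n-whole libraries of mice 2 and 4, and 4 to 7 with a mouse left out. For these settings of both tests, no counts over all genes are given. The numbers of called members in these settings therefore cannot be set against those of other genes. The lobular covariate moved the medians to -0.16, -0.00927, -0.0343 and -0.0655 (4n-whole and 2n-whole, 4n-top and 4n-bottom, 4n-bottom and 2n-whole, 4n-top and 2n-whole).

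Signs changed only for uncalled values. In 4n-top against 4n-bottom, Eif2s3y was at 0.0176 with no replicate block, 0.0156 with the compared populations only, 0.0444 with the non-parenchymal covariate and 0.0185 with the GC correction. Eif4ebp2 was at 0.0177, 0.00880 and 3.6e-05 with the compared populations only, the non-parenchymal and the lobular covariate. Eif5a was at -0.0134, -0.0246 and -0.00477 with the compared populations only, the non-parenchymal covariate and the GC correction, and Eif4ebp3 at -0.0589 with the lobular covariate. With a mouse left out, the ranges were -0.0458 to 0.0244 for Eif2s3y, -0.0668 to 0.0284 for Eif4ebp2, -0.0145 to 0.0722 for Eif5a, -0.18 to 0.37 for Eif4ebp3 and -0.0355 to 0.10 for Eif2b4. In 4n-whole against 2n-whole, Eif5a was at -0.0030 with the non-parenchymal covariate, Eif4ebp2 at -0.0464 and -0.0241, Eif2s3y at 0.20 and 0.0153 with the GC correction and without the 4n-whole libraries of mice 2 and 4, Eif2s1 at 0.0242 with the GC correction, and Eif2s3x at 0.0149 without those libraries and at -0.33 to 0.0113 with a mouse left out. Without those libraries Eif4e in 4n-whole against 4n-top was at 0.0436. Counts of 4 to 71 (Eif4e3), 20 to 185 (Eif4ebp3) and 21 to 78 (Eif3j2) limit the precision of these genes. Even numbers made up 74.2% to 81.4% of the counts from 1 to 10 in each library, and halving all counts changed no call of Eif4e or Eif2b4.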
